A study of Mus musculus with 11 samples.

Results

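The genes described here encode the constitutive proteasome, with its 20S core and its 19S cap, together with Vcp. They were taken from the 53700 genes of the deposited table as the protein-coding genes named Psma, Psmb, Psmc or Psmd with a number, without the inducible catalytic subunits Psmb8, Psmb9 and Psmb10 and the thymus subunit Psmb11, plus Vcp. That gave 36 genes, of which 15 belong to the 20S core, 20 to the 19S cap and 1 is Vcp, and all 36 passed the filter on low counts that left 16639 genes for testing. RNA was sequenced from sorted ST-HSC, the usual short form for short-term haematopoietic stem cells, of mouse bone marrow in 11 libraries. The hosts were C57BL/6j mice, and every host had been transplanted with acute myeloid leukaemia marrow carrying Flt3-ITD and a TET2 KO. The groups were CXCL12 KO hosts given cytarabine, doxorubicin and quizartinib together (KO treated, 3 libraries), CXCL12 WT hosts given the same drugs (WT treated, 3 libraries), CXCL12 KO hosts given vehicle (KO vehicle, 2 libraries) and CXCL12 WT hosts given vehicle (WT vehicle, 3 libraries). The titles mark the KO hosts as Cre-positive and the WT hosts as Cre-negative. Whether donor leukaemia cells were separated from host cells in the sort, the Cre driver, the age of the mice, the doses and the time of collection are not given in the sources used here. It is also not stated whether each library came from a separate animal, so p-values reflect the scatter of these libraries, which may be technical.

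The proteasome degrades proteins tagged with ubiquitin. Its 20S core is a barrel in which rings of alpha subunits gate the entry and rings of beta subunits hold the active sites. The 19S cap binds the ubiquitin tag, removes it and uses a ring of ATPases to unfold the protein and thread it into the core. Vcp, also called p97, is a separate AAA ATPase that pulls ubiquitin-tagged proteins out of membranes and complexes and passes many of them to the proteasome. Transcription of proteasome genes is known to be raised by Nfe2l1 (NRF1) acting at antioxidant response elements in their promoters, and blood cancers of the plasma cell lineage are treated with inhibitors of the catalytic subunit Psmb5.

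RefSeq promoters of assembly GRCm38.p6, from 250 bases before to 50 bases after the annotated start, were matched by symbol for 29 of the 36 genes. The core of the antioxidant response element, searched on both strands as TGACNNNGC, was present in 6 of these 29 genes (20.7%), against 14% of the 27025 genes with a promoter in the same table. The 6 genes were Psmb5, Psmb6, Psmc6, Psmd9, Psmd12 and Vcp. The longer form TGACTCAGC, which is itself 1 case of the first, was found in 0 of 29, against 0.503% of all genes. CCAAT was as frequent as in all genes (41.4% against 41.1%), and the ETS-type motif GGAAGTG was present in 24.1% against 12.5%. All were searched on both strands, and a match is a description of the sequence only. The 250 bases before the start are shown for the core subunits Psmb5 (chr14:54617996-54618245, minus strand) and Psmb6 (chr11:70525107-70525356, plus strand), and for Vcp (chr4:43000508-43000757, minus strand), because each holds the element and Vcp lay on the other side from Psmb5 and Psmb6 in WT treated against WT vehicle and in KO treated against WT treated libraries. Capitals mark TGACNNNGC, which begins 47 bases before the start in Psmb5, 9 in Psmb6 and 114 in Vcp. The counts themselves were made on a later assembly, GRCm39, so these positions apply to GRCm38.p6 alone.
Psmb5: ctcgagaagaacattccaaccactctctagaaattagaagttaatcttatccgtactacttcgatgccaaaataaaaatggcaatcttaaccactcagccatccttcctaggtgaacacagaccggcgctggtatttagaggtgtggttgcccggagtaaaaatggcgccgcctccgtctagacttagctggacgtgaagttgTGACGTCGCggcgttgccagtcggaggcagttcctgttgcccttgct
Psmb6: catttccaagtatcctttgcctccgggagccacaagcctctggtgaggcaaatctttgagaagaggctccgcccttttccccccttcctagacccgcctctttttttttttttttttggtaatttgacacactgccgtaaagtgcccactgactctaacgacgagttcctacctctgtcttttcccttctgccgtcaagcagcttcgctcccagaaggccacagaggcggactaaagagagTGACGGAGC
Vcp: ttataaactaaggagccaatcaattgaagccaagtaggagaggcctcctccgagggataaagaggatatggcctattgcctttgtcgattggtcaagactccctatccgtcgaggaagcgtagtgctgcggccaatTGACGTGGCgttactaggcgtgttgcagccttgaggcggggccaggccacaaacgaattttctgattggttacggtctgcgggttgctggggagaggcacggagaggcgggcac

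The libraries held 8.13 M to 31.1 M reads counted in genes, and the 36 genes took 0.565% to 1.34% of them. Reads outside genes were 30.4%, 10.5% and 5.98% of all reads in KO treated libraries 257, 263 and 276 and 10.1%, 6.33% and 16.6% in WT treated libraries, and 18.8% and 9.41% in KO vehicle libraries and 28.7%, 18.0% and 28.8% in WT vehicle libraries. Mitochondrially encoded genes took 8.05% to 13.8% of gene counts in KO treated libraries and 2.86% to 14.95% in WT treated libraries, and 8.79% to 14.2% in KO vehicle libraries and 17.2% to 27.4% in WT vehicle libraries, so both shares were lower in every WT treated than in every WT vehicle library. Kit, Ly6a, Cd34, Cd48, Slamf1 and Flt3, listed as markers for the sort, each had counts in every group except Slamf1, which was at 0 in all 3 WT vehicle libraries. Kit ranged from 20.5 to 243 CPM (counts per M counts of TMM-scaled library size, M being the prefix mega). The 12 listed erythroid genes summed to 22490 to 109100 CPM in KO treated libraries and 264 to 657 CPM in WT treated libraries, and to 368.5 to 17660 CPM in KO vehicle libraries and 64.0 to 1135 CPM in WT vehicle libraries, with all 12 detected in each group. The 10 granulocyte genes, all detected, summed to 10220 to 33560 CPM in KO treated libraries and 30370 to 149800 CPM in WT treated libraries. They summed to 38460 to 59820 CPM in KO vehicle libraries and 36700 to 94480 CPM in WT vehicle libraries, so every KO treated library lay below every vehicle library. The 7 T and NK cell genes summed to 1224, 293 and 474 CPM in KO treated libraries 257, 263 and 276, 986 to 1706 CPM in WT treated libraries, 834 and 844 CPM in KO vehicle libraries, and 449 to 705 CPM in WT vehicle libraries, where Cd3e, Cd3g, Trac and Klrb1c were at 0. The 6 B cell genes summed to 65.8, 36.6 and 38.9 CPM in KO treated libraries, 70.3 to 97.1 CPM in WT treated libraries and 51.2 to 58.4 CPM in WT vehicle libraries, where Ms4a1 was at 0. The 7 stroma and endothelium genes ran the other way, with 36.9, 68.4 and 70.6 CPM in KO treated libraries, 24.3 to 32.9 CPM in WT treated libraries and 42.6 to 82.2 CPM in WT vehicle libraries. In these 3 lists WT treated and WT vehicle libraries did not overlap, and library 257 was the nearest of the KO treated libraries to the WT treated ones. In the stem and progenitor, lineage antigen, erythroid, granulocyte, monocyte and megakaryocyte lists WT treated and WT vehicle libraries overlapped. Library 257 was also nearest for granulocyte genes. Library 263 was nearer than 257 for erythroid genes (22490 against 47140 CPM) and lineage antigens (210.7 against 245.8 CPM). Cxcl12, the gene deleted in the hosts and not a marker of the sorted cells, had 0 to 5.36 CPM in KO libraries and 0 to 14.4 CPM in WT libraries, so it does not check the labels.

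Within the 20S core, levels per kilobase of transcript differed widely between subunits. Psma7, an alpha subunit, was highest at 750 ± 376 CPM per kilobase (SD, n = 11 libraries), followed by Psmb6 at 512 ± 301 and Psmb3 at 481 ± 257, which differed by less than their spread over libraries. The 3 catalytic subunits stood far apart on this scale, with Psmb6 (caspase-like activity) at 512 ± 301, Psmb5 (chymotrypsin-like) at 187 ± 88.8 and Psmb7 (trypsin-like) at 37.8 ± 13.6 CPM per kilobase. Psma8, an alpha subunit known from the testis form of the proteasome, was lowest at 4.58 ± 5.64. In the 19S cap the range was narrower, from Psmc3, an ATPase, at 202 ± 47.7 to Psmd9, an assembly chaperone, at 22.8 ± 8.92 CPM per kilobase, and Vcp stood at 100 ± 33.3. Lengths are those of the longest principal transcript in GENCODE M21, and which transcript was expressed was not measured. The annotation also names processed pseudogenes of Psmb5, Psmb6, Psmb7 and Vcp, and the Vcp copy Vcp-rs held 38 to 291 counts per library against 3434 to 11407 for Vcp.

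The core, the cap and Vcp followed 3 different patterns over the 11 libraries. The median 20S gene, as log2 CPM minus the mean of all libraries, stood at 0.75, -0.72 and -0.52 in KO treated libraries 257, 263 and 276, and at 0.81, 0.86 and 0.89 in the 3 WT treated libraries. It stood at -0.29 in both KO vehicle libraries and at -0.63, -0.30 and -0.56 in WT vehicle libraries. The WT treated libraries and KO treated library 257 were therefore high for the core, and the other 2 KO treated libraries were within or below the range of the vehicle libraries. The median 19S gene stood at -0.03, -0.42 and 0.01 in KO treated libraries, against 0.00, 0.44 and 0.50 in WT treated libraries, and at 0.09 and 0.06 in KO vehicle libraries and -0.21, -0.09 and -0.04 in WT vehicle libraries. Vcp stood at 0.37, 0.09 and 0.23 in KO treated libraries, against -0.85, -0.81 and -0.82 in WT treated libraries, and at 0.29 and 0.08 in KO vehicle libraries and 0.24, 0.59 and 0.59 in WT vehicle libraries. Of the core, the cap and Vcp, only for Vcp did the 3 KO treated libraries stand together and away from the WT treated libraries.

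**Figure D1:**
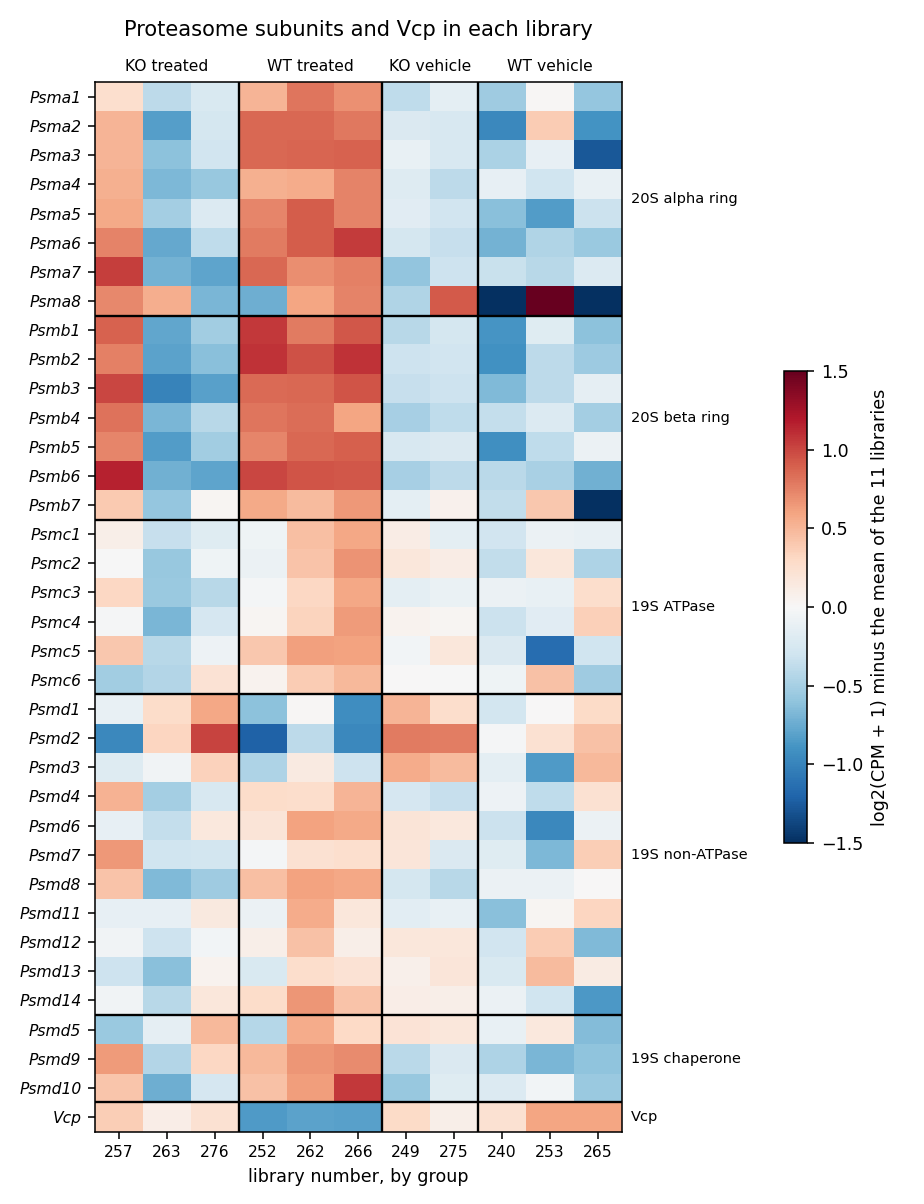
Each of the 36 genes (rows, by role) in each of the 11 libraries (columns, by group), as log2(CPM + 1) minus the mean of the 11 libraries, with colours capped at 1.5 in each direction. Most 20S rows are red in KO treated library 257 and the 3 WT treated libraries, while Vcp is blue in the WT treated libraries alone.

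**Figure D2:**
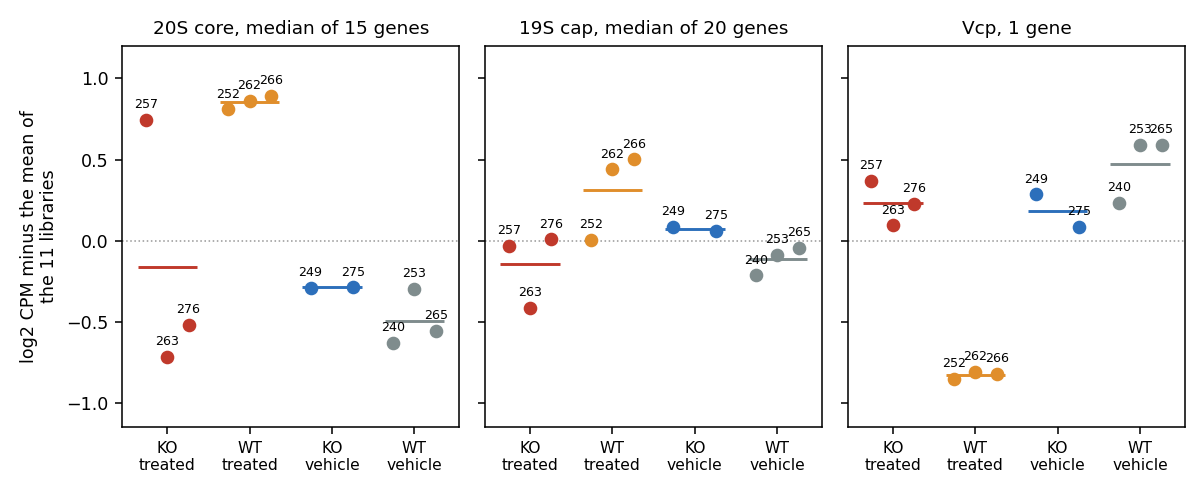
Median log2 CPM of the 15 20S genes, of the 20 19S genes and of Vcp in each library, minus the mean of the 11 libraries, with the library number beside each point and the group mean as a line. KO treated library 257 lies at 0.75 for the 20S core, near the WT treated libraries (0.81 to 0.89), and at 0.37 for Vcp, the highest of the KO libraries and far from the WT treated ones.

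Drug treatment in WT hosts was the comparison with the widest differences. The 20S core was higher in WT treated than in WT vehicle libraries, with 14 of 15 genes on the positive side (52.6% of all 16639 genes tested) and a median log2 fold change of 1.26, where the median over all genes was 0.09. For 14 of the 15 core genes every WT treated library was above every WT vehicle library, which held for 17.5% of all genes tested. In edgeR's quasi-likelihood test 0 of the 36 genes passed an adjusted p of 0.05, as did 0% of all genes, and at an unadjusted p under 0.05 13 of the 15 core genes were higher, against 10.1% of all genes. DESeq2 called 8 of the 36 (7 higher, 1 lower, against 6.42% of all genes) and limma voom 0 (0% of all genes). EdgeR called 6 without the filter (0.768% of all genes) and 17 when reads outside genes entered as a covariate (12.6%). That share was lower in every WT treated than in every WT vehicle library, so the covariate and the drug comparison cannot be fully told apart. In bulk libraries fewer cells of a type and less RNA per cell cannot be told apart.

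The catalytic beta subunits all lay on the positive side. Psmb5 had 251, 275 and 282 CPM in WT treated libraries, against 79.3, 116 and 142 CPM in WT vehicle libraries. The groups did not overlap, and the log2 fold change was 1.26 ± 0.40 (SE, edgeR adjusted p = 0.179). Psmb6 had 703, 675 and 674 CPM in WT treated libraries, against 266, 251 and 214 CPM in WT vehicle libraries, a log2 fold change of 1.49 ± 0.47 (edgeR adjusted p = 0.177). The WT treated values lay within a narrow band well above the vehicle values. Psmb7 had 60.5, 56.8 and 64.5 CPM in WT treated libraries, against 31.3, 54.0 and 13.7 CPM in WT vehicle libraries, with 1 vehicle library close to the treated ones (log2 fold change 0.87 ± 0.45, edgeR adjusted p = 0.323). Psmb2, a structural beta subunit, had the largest log2 fold change of the core, 1.65 ± 0.40 (edgeR adjusted p = 0.172), from 727, 667 and 729 CPM in WT treated libraries and 183, 261 and 234 CPM in WT vehicle libraries.

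The alpha ring showed the same direction. Psma5 had 325, 366 and 328 CPM in WT treated libraries, against 126, 108 and 156 CPM in WT vehicle libraries (log2 fold change 1.39 ± 0.32, edgeR adjusted p = 0.172). Psma1 had 587, 715 and 658 CPM in WT treated libraries, against 284, 414 and 274 CPM in WT vehicle libraries (log2 fold change 1.01 ± 0.29, edgeR adjusted p = 0.174). In both genes the groups did not overlap, and 7 of the 8 alpha genes had a positive log2 fold change. Psma3 was at 671, 677 and 687 CPM in WT treated libraries and 267, 339 and 153 CPM in WT vehicle libraries, a log2 fold change of 1.42 ± 0.37. Psma8 was the exception, with 2.4, 7.7 and 8.6 CPM in WT treated libraries and 0.1, 34.5 and 0.5 CPM in WT vehicle libraries, where the vehicle group spanned the treated one.

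The 19S cap differed less. Of its 20 genes, 16 had a positive log2 fold change in WT treated against WT vehicle libraries, with a median of 0.37. For 8 of them the WT treated libraries were all above the WT vehicle libraries, and for 1, Psmd2, they were all below, against 17.5% and 10.1% of all genes. At an unadjusted p under 0.05 5 were higher and 1 lower, against 10.1% and 8.11% of all genes. The ATPases were positive in 6 of 6 genes (median 0.44). Psmc5, an ATPase subunit, had 236, 273 and 270 CPM in WT treated libraries, against 153, 80.1 and 144 CPM in WT vehicle libraries (log2 fold change 1.05 ± 0.32, edgeR adjusted p = 0.177). Psmd14, the deubiquitinase that removes the ubiquitin chain, had 230, 301 and 257 CPM in WT treated libraries and 179, 155 and 104 CPM in WT vehicle libraries. The groups did not overlap (log2 fold change 0.85 ± 0.29, edgeR adjusted p = 0.190). The assembly chaperones Psmd9 and Psmd10 had log2 fold changes of 1.23 ± 0.32 and 1.01 ± 0.35, and Psmd9 ranged from 77.4 to 90.8 CPM in WT treated libraries against 34.0 to 39.7 CPM in WT vehicle libraries. Psmd2, one of the large scaffold subunits of the cap base, lay on the other side, with 84.8, 151 and 100.7 CPM in WT treated libraries against 196, 232 and 270 CPM in WT vehicle libraries, and no overlap (log2 fold change -1.05 ± 0.43, edgeR adjusted p = 0.241). Psmd1, the other large scaffold subunit, was named after its values were seen and had a log2 fold change of -0.48, with overlapping groups. Psmd13, a structural subunit of the cap, stood near 0 at -0.05 ± 0.29.

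Vcp had the lowest unadjusted p of the 36 genes in this comparison. It had 173, 179 and 177 CPM in WT treated libraries, against 368, 471 and 471 CPM in WT vehicle libraries. The WT treated libraries lay within a range of a few CPM (176.5 ± 2.83, SD, n = 3) and far below every other library of the series, of which the lowest had 332 CPM. The log2 fold change was -1.31 ± 0.25, with an edgeR adjusted p of 0.172 and a DESeq2 adjusted p of 6.5e-05. Without library 257, which is in neither group but enters the shared estimate of spread, edgeR called 15 of the 36 genes (14 higher and Vcp lower, against 6.19% of all genes), with the log2 fold change of Vcp at -1.31. Without WT vehicle library 240, edgeR called 1 gene, Vcp, against 1.15% of all genes. Leaving out each library in turn gave 0 to 15 genes called, and these omissions were picked out with the values known.

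**Figure D3:**
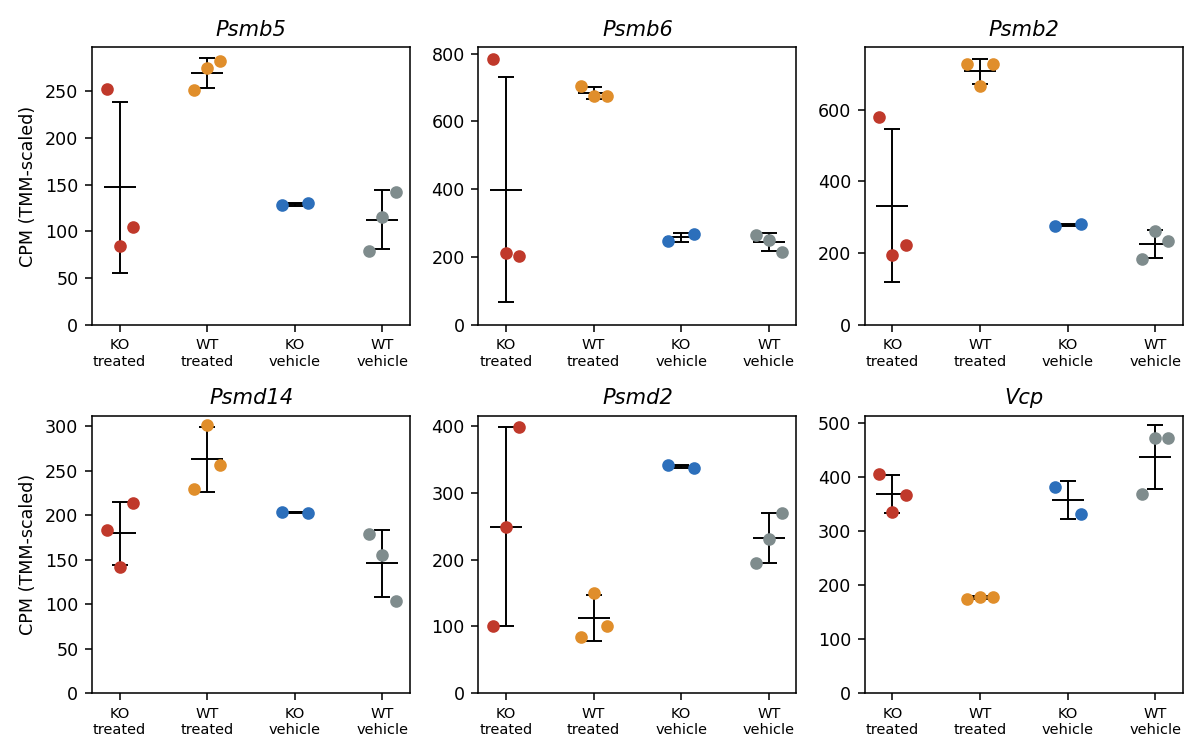
CPM of 3 core subunits, 2 cap subunits and Vcp in each library by group, with the group mean and SD in black. For Psmb5, Psmb6 and Psmb2 library 257 is the single high KO treated point, and for Vcp the WT treated libraries lie near 177 CPM with all others at 332 CPM or above.

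The comparison of KO treated with WT treated libraries asks whether the host's CXCL12 is tied to these genes under therapy. All 15 core genes had a negative log2 fold change, although it was positive for 53.9% of all genes, with a median of -0.78 where all genes had 0.10, and 17 of 20 cap genes were negative with a median of -0.43. The groups did not overlap for 7 core genes and 6 cap genes, all lower in KO treated libraries, against 9.56% of all genes tested, and for Vcp, which was higher, against 9.71%. EdgeR called 0 of the 36 genes, and at an unadjusted p under 0.05 7 core and 2 cap genes were lower against 3.5% of all genes, and 3 of the 36 were higher against 7.13%. DESeq2 called 1 gene (Vcp, 1.36% of all genes) and limma voom with quality weights called 28 (26 lower and 2 higher, 25.8% of all genes). Psmb2 had 579, 196 and 222 CPM in KO treated libraries 257, 263 and 276, against 727, 667 and 729 CPM in WT treated libraries (log2 fold change -1.09 ± 0.39, edgeR adjusted p = 0.434). The groups did not overlap, but library 257 lay close to the WT treated libraries. For Psmb6 it lay above them, with 783, 212 and 202 CPM in KO treated libraries and 703, 675 and 674 CPM in WT treated libraries (log2 fold change -0.78 ± 0.46, edgeR adjusted p = 0.582), and Psmb5 had 252, 84.3 and 105 CPM in KO treated libraries against 251, 275 and 282 CPM in WT treated libraries. Psma1 had 487, 313 and 351 CPM in KO treated libraries against 587, 715 and 658 CPM in WT treated libraries, without overlap (log2 fold change -0.77 ± 0.29). Psma7 had 1267, 374 and 355 CPM in KO treated libraries against 1118, 999 and 1038 CPM in WT treated libraries.

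Within the cap, Psmd10 had 75.8, 33.8 and 47.4 CPM in KO treated libraries against 76.9, 88.3 and 120 CPM in WT treated libraries (log2 fold change -0.86 ± 0.35, edgeR adjusted p = 0.442). All KO treated values lay below the WT treated values, though library 257 only just. Psmd14 had 183, 142 and 213 CPM in KO treated libraries against 230, 301 and 257 CPM in WT treated libraries, with a log2 fold change of -0.55 ± 0.29. Psmd2 was higher, with 100.9, 249 and 399 CPM in KO treated libraries against 84.8, 151 and 100.7 CPM in WT treated libraries (log2 fold change 1.15 ± 0.43, edgeR adjusted p = 0.434), and here too library 257 was at the WT treated level. Its log2 fold change was 1.53 without library 257 and 0.57 without library 276. Vcp had 404.5, 334 and 367 CPM in KO treated libraries against 173, 179 and 177 CPM in WT treated libraries, and library 257 was with the other KO treated libraries. Its log2 fold change was 1.06 ± 0.25, with an edgeR adjusted p of 0.383 and a DESeq2 adjusted p of 0.00287.

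Without library 257, edgeR called 16 of the 36 genes in this comparison, against 9.26% of all genes. These were 12 core genes and 2 cap genes (Psmd8 and Psmd10) that were lower, and Psmd2 and Vcp that were higher, with the median of the core at -1.36. Each library was left out in turn, which gave 0 to 16 genes called, and 257 was picked out with these values known. Its core lay near the WT treated libraries, so leaving it out widens the core difference by construction. Library 257 also had the highest share of reads outside genes (30.4%, against 10.5% and 5.98% in the other KO treated libraries). WT vehicle libraries 240 and 265 were close to it, at 28.7% and 28.8%. The summed erythroid genes of 257 lay between those of the other KO treated libraries. When reads outside genes entered as a covariate the core median was -1.05 in this comparison, with 0 of the 36 genes called. It was 1.81 in WT treated against WT vehicle libraries, where the groups did not overlap in that share. The part of the mitochondrial share and of the marker levels above in the results was not tested.

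In KO vehicle against WT vehicle libraries the median log2 fold change was 0.12 for the core and 0.22 for the cap, where all genes had 0.00, with 24 of the 36 genes positive against 48.7% of all genes. EdgeR called 0 of the 36 genes, 0 of them had an unadjusted p under 0.05 (6.78% of all genes), and DESeq2 (1.24% of all genes) and limma voom (0%) called 0. Psmc5, with 173 and 200 CPM in KO vehicle libraries and 153, 80.1 and 144 CPM in WT vehicle libraries, and Psmd6, a structural cap subunit, with 171 and 167 CPM in KO vehicle libraries and 120, 76.0 and 141 CPM in WT vehicle libraries, had the smallest p of the cap. In both the KO vehicle libraries were above the WT vehicle libraries, as they were for 13.2% of all genes, and the log2 fold changes were 0.57 ± 0.35 and 0.59 ± 0.33. Vcp had 382 and 332 CPM in KO vehicle libraries against 368, 471 and 471 CPM in WT vehicle libraries (log2 fold change -0.29 ± 0.28). With the length trend described below removed its log2 fold change was -0.79 (edgeR adjusted p = 0.535), where the median of all genes was -0.335. Vcp thus stood at -0.46 from that median, in place of -0.29.

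KO treated against KO vehicle libraries gave a median log2 fold change of 0.25 for the core and -0.15 for the cap, where all genes had 0.12, with 21 of the 36 positive against 56.1% of all genes. EdgeR called 0, and 0 of the 36 genes had an unadjusted p under 0.05 (3.68% of all genes). DESeq2 (0.138% of all genes) and limma voom (0%) also called 0. The core median was -0.30 without library 257. Of the 15 core genes 14 were positive. With the length trend described below removed, most core genes were negative. They then ranged from -0.32 (Psmb5) to 0.30 (Psma2), where the median of all genes was -0.017. Psmb6 had 783, 212 and 202 CPM in KO treated libraries and 248 and 267 CPM in KO vehicle libraries (log2 fold change 0.63 ± 0.52). Psmb4, a structural beta subunit, had 394, 139 and 168 CPM in KO treated libraries and 159 and 172 CPM in KO vehicle libraries, again with library 257 alone above the vehicle values. For 5 cap genes every KO treated library was below both KO vehicle libraries, against 10.1% of all genes. Psmd13 had 138, 111 and 178 CPM in KO treated libraries and 181 and 195 CPM in KO vehicle libraries (log2 fold change -0.40 ± 0.33). Vcp had 404.5, 334 and 367 CPM in KO treated libraries and 382 and 332 CPM in KO vehicle libraries (log2 fold change 0.05 ± 0.28).

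The difference between the drug responses of the 2 host genotypes was tested as an interaction, the KO response minus the WT response. Its median was -0.90 for the core and -0.54 for the cap, where all genes had 0.11, and 4 of the 36 were positive against 53.6% of all genes. Vcp had the largest positive value, 1.36 ± 0.38, with an edgeR adjusted p of 0.767 and a DESeq2 adjusted p of 0.0371. EdgeR called 0 of the 36 genes, with 6 lower and 1 higher at an unadjusted p under 0.05 against 6.31% of all genes in either direction. DESeq2 called Vcp alone (0.349% of all genes) and limma voom 0 (0%). Psmb2 (-1.39 ± 0.58), Psma5 (-1.13 ± 0.47), Psmd6 (-1.16 ± 0.44) and Psmd14 (-1.03 ± 0.43) had the smallest p of the core and of the cap. In 4 of the 36 genes, Psmc2, Psmc4, Psmd6 and Psmd12, every WT treated library was above the WT vehicle mean and every KO treated library below the KO vehicle mean, against 5.26% of all genes. The comparisons above share libraries, so their values are given side by side and are not independent of each other.

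Transcript length moved with these differences. Core transcripts had a median length of 1165 nt and cap transcripts 1710 nt, against 2561 nt over all genes tested. Across the 36 genes Spearman's rho of the log2 fold change with length was -0.62 in WT treated against WT vehicle libraries and 0.60 in KO treated against WT treated libraries, and over 16583 genes it was -0.33 and 0.47. In KO treated against KO vehicle libraries rho was -0.56 across the 36 genes and -0.11 over the 16583. These correlations are across genes of the same libraries. In single libraries the rho of a gene's deviation with its length was -0.23 in KO treated library 257 and 0.35 and 0.36 in the others, -0.40 to -0.30 in WT treated libraries, 0.23 and 0.24 in KO vehicle libraries and 0.02 to 0.11 in WT vehicle libraries. The sign of this trend thus split the libraries as the core genes did, with 257 beside the WT treated libraries.

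With each library's trend with length removed, the median of all genes in WT treated against WT vehicle libraries shifted to -0.30, and the core stood 0.44 above it in place of 1.17, and the cap 0.04 above it in place of 0.28. In KO treated against WT treated libraries the core stood 0.42 below the median of all genes (-0.39 against 0.03) and the cap 0.16 below. Psmb5 and Psmb6 then had log2 fold changes of 0.14 and 0.38 in WT treated against WT vehicle libraries. Vcp then had -1.33 there, which was 1.03 below the median of all genes in place of 1.40, and Psmd2 had -1.18, which was 0.89 below it in place of 1.14. In KO treated against WT treated libraries Vcp stood 0.69 above the median of all genes in place of 0.96, and Psmd2 0.78 above it in place of 1.06. Psma3 was then the only core gene with an edgeR unadjusted p under 0.05 in WT treated against WT vehicle libraries (0.0139), in place of 13. Psma3 was also the only such core gene in KO treated against WT treated libraries (0.0307), in place of 7. After adjustment no core or cap gene passed in either comparison, nor did Vcp. The lowest edgeR adjusted p was that of Vcp in WT treated against WT vehicle libraries (0.176). Among the 8 genes with transcripts over 2500 nt, a length chosen after the values were seen, 5 had a positive log2 fold change in WT treated against WT vehicle libraries (Psma2, Psma3, Psmd9, Psmd5 and Psmd11, at 0.27 to 1.42) and 3 a negative one (Psmd1, Psmd2 and Vcp, at -1.31 to -0.48). Removing the trend also removes any real difference that runs with length, and its part in the differences was not tested further.

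**Figure D4:**
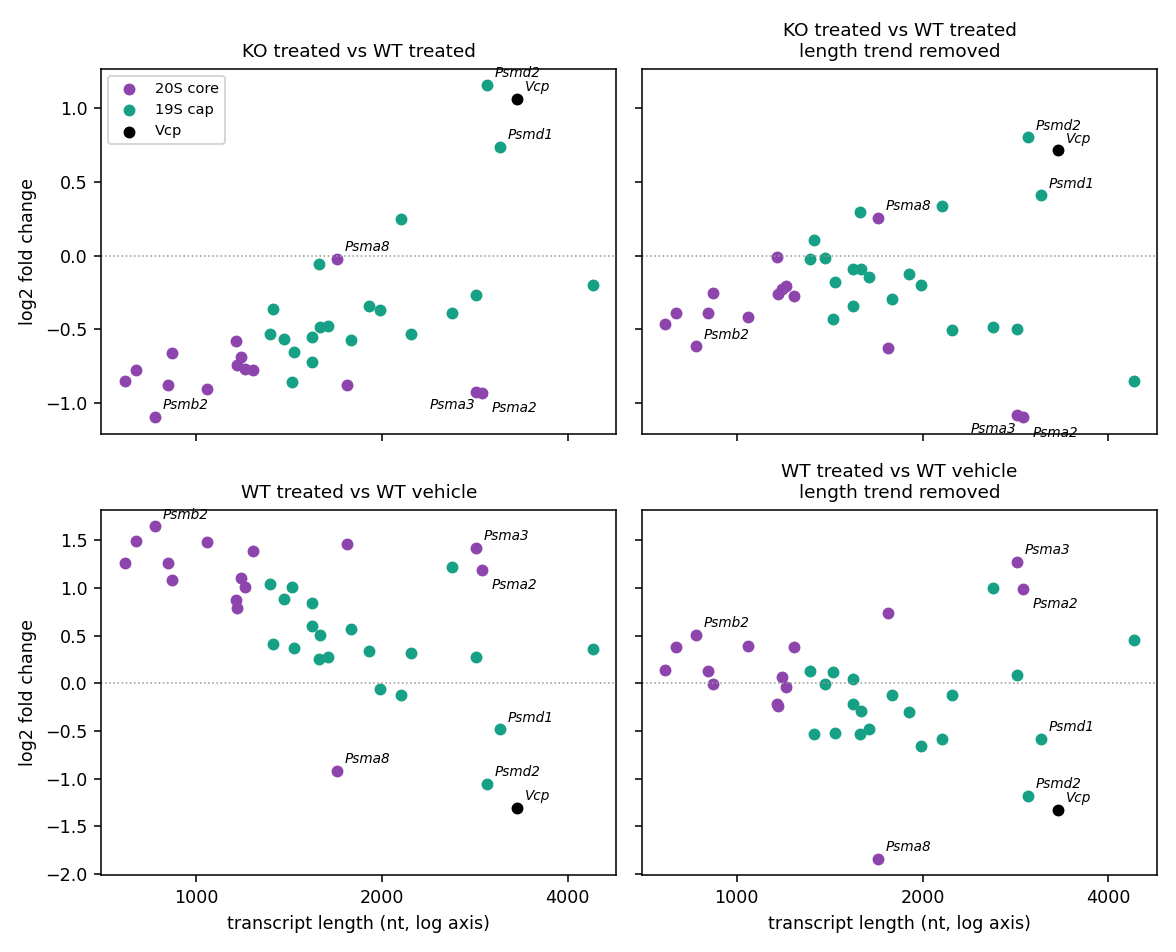
Log2 fold change of each of the 36 genes (20S purple, 19S green, Vcp black) against transcript length on a log axis, for KO treated against WT treated (top) and WT treated against WT vehicle (bottom), before (left) and after (right) each library's trend with length was removed. After removal the core median is -0.39 in the top row and 0.14 in the bottom row, while Vcp is at -1.33 and Psmd2 at -1.18 in the bottom row, where the median of all genes is -0.30.

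The other genes of the pathway, 49 in 8 lists, lay on both sides. In WT treated against WT vehicle libraries 24 were positive and 25 negative, and their median was -0.05 on the log2 scale. In the same comparison 13 of the 49 had an unadjusted p under 0.05 on the positive side and 7 on the negative side, against 10.1% and 8.11% of all genes, and edgeR called 0 of them after adjustment. The inducible catalytic subunits Psmb8, Psmb9 and Psmb10, which replace Psmb5, Psmb6 and Psmb7 in the immunoproteasome, had log2 fold changes of 1.48, 1.82 and 1.13, and -1.03, -1.33 and -0.72 in KO treated against WT treated libraries. Of 12 exact permutation tests of the ratio to the subunit they replace, 0 passed after adjustment. With so few libraries these tests cannot give a p under 0.1, so that count was fixed in advance. The log2 ratio of Psmb9 to Psmb6 per kilobase was -1.36 ± 0.21 in KO treated libraries and -0.85 ± 0.39 in WT treated libraries (SD, n = 3 each), and its exact 2-sided permutation p of 0.1 is the smallest the design allows and 0.764 after adjustment over the 12 tests of 3 ratios, although the groups did not overlap. The difference of -0.51 was -0.28 without WT treated library 252. The 5 core assembly chaperones were all positive in WT treated against WT vehicle libraries (median 1.47). Psmg2, which helps build the alpha ring, had 127, 153 and 154 CPM in WT treated libraries and 60.8, 35.5 and 38.8 CPM in WT vehicle libraries (log2 fold change 1.68 ± 0.39, edgeR adjusted p = 0.172), and no overlap. Psmg4, another of these chaperones, had 130, 33.9 and 19.5 CPM in KO treated libraries and 19.2 and 24.3 CPM in KO vehicle libraries, with library 257 again alone. The activator genes split, with Psme1 and Psme2 (the PA28 alpha and beta subunits) at 1.16 and 1.49, and Psme3 and Psme4 at -0.47 and -0.81.

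Nfe2l1, the transcription factor named above, had 22.0, 19.1 and 23.1 CPM in WT treated libraries, against 66.4, 74.5 and 31.3 CPM in WT vehicle libraries (log2 fold change -1.42 ± 0.37, edgeR adjusted p = 0.172). It had 54.4, 69.2 and 66.3 CPM in KO treated libraries, a log2 fold change of 1.56 ± 0.37 against WT treated libraries (edgeR adjusted p = 0.379). The WT treated libraries were below all other libraries, library 257 included. Its value with the length trend removed was -1.35 in WT treated against WT vehicle libraries and 0.96 in KO treated against WT treated libraries. All 5 genes listed for transcription control of the proteasome had a negative log2 fold change in WT treated against WT vehicle libraries (median -0.79), as did all 5 shuttle receptors, which carry ubiquitin-tagged proteins to the cap (median -0.50). Of these, 2 transcription control genes and 1 shuttle receptor had an unadjusted p under 0.05, against 8.11% of all genes on the negative side. Rad23b, one of these receptors, had 63.2, 43.8 and 45.9 CPM in KO treated libraries and 32.7 and 25.3 CPM in KO vehicle libraries (log2 fold change 0.81, edgeR adjusted p of 1).

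The 16 Vcp cofactors were spread over both sides, with 7 positive and 9 negative in WT treated against WT vehicle libraries. Ube4b, a ubiquitin chain elongation factor that binds Vcp, had 26.2, 17.0 and 13.5 CPM in WT treated libraries and 31.7, 57.8 and 59.7 CPM in WT vehicle libraries (log2 fold change -1.39 ± 0.40, edgeR adjusted p = 0.172). Nploc4, which with Ufd1 forms the main ubiquitin-binding adaptor of Vcp, was named after its values were seen. It had 19.7, 25.5 and 19.1 CPM in WT treated libraries and 58.3, 105 and 81.4 CPM in WT vehicle libraries, without overlap. Ufd1 itself had a log2 fold change of 0.51 in the same comparison. Selenos, a membrane anchor of Vcp at the endoplasmic reticulum, had 109, 61.3 and 95.5 CPM in KO treated libraries against 214, 200 and 216 CPM in WT treated libraries (log2 fold change -1.25 ± 0.31, edgeR adjusted p = 0.379), and no overlap. Derl1, a channel component of the same pathway, had 149 and 181 CPM in KO vehicle libraries and 87.6, 134 and 57.3 CPM in WT vehicle libraries. Of the 6 genes for ubiquitin and its activation, 3 were positive and 3 negative, with Ubb at a log2 fold change of 1.23 and Uba1, the main ubiquitin-activating enzyme, at -1.05.

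**Figure D5:**
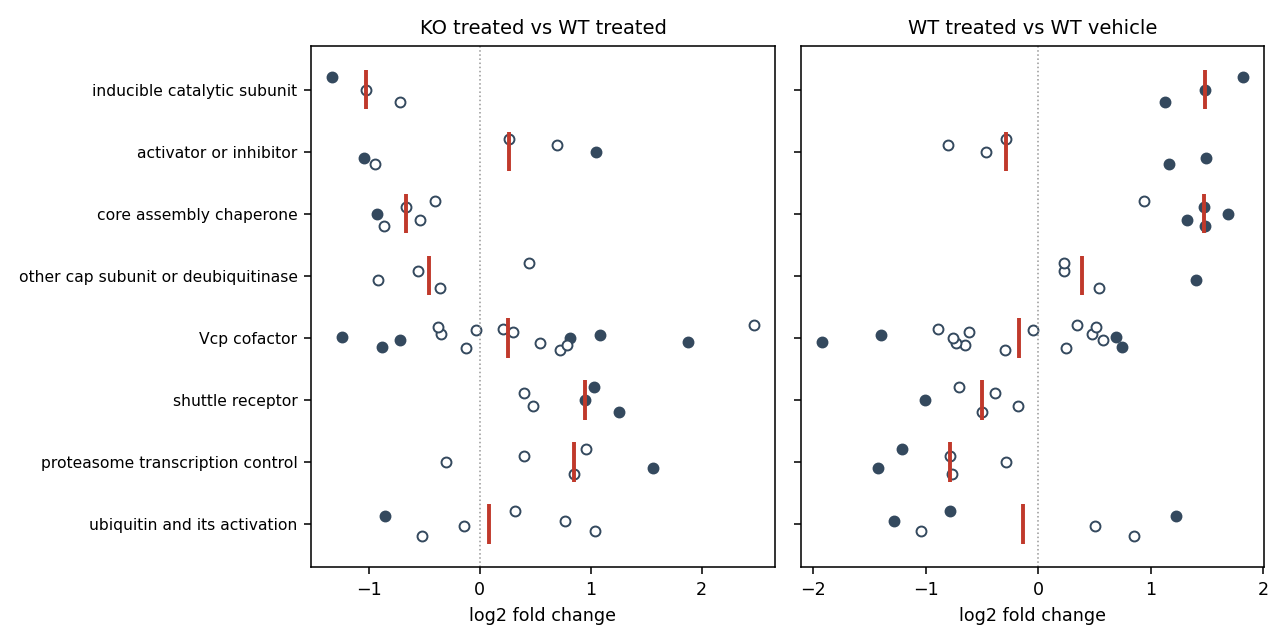
Log2 fold change of the 49 partner genes by list for KO treated against WT treated (left) and WT treated against WT vehicle (right), with filled points for an unadjusted edgeR p under 0.05 and red lines for list medians. Inducible subunits and core assembly chaperones lie on the positive side in the right panel (medians 1.48 and 1.47), and transcription control genes and shuttle receptors on the negative side (-0.79 and -0.50).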

How the data were processed

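Per the labels' protocols, the RNA came from an RNeasy Plus Micro kit, a SMARTer low-input kit (v4) made the cDNA and Nextera XT the libraries. These kits keep no strand, so genes that overlap on opposite strands are not told apart. The submitters' processing notes name GRCm39 as the build, bcl2fastq and DESeq2 without a version, Trim Galore and HTSeq each as 0.6.7, and STAR as 2.7.9a. The authors deposited raw read counts per gene for 53700 genes, without normalization. The 5 HTSeq summary lines were left out of library sizes and tests.

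Ensembl IDs were matched to GENCODE M21, which gave symbols for 52093 genes and lengths for 99.7% of those tested. Counts were tested with edgeR 4.0.16 in R 4.3.3 (filterByExpr, TMM, robust quasi-likelihood, 1 model of 4 groups) in 5 contrasts, with Benjamini-Hochberg adjustment over 16639 genes and a threshold of 0.05. The biological coefficient of variation was 0.783, and SE was taken from the fold change and the F statistic of its test. DESeq2 1.42.0, limma 3.58.1 voom, other scalings and filters, a covariate for reads outside genes, a lowess correction for transcript length (span 0.3) and leaving out libraries were alternatives. Ratios used a pseudocount of 0.5. The scripts were tested on simulated data. Counts carry no molecular identifiers.

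The members, lists and tests were chosen with earlier results of these data known. Genes named with values in each library are the 2 core, 2 cap and 2 partner genes of smallest p in each contrast, the catalytic subunits Psmb5, Psmb6 and Psmb7, Psmd14, Psmc5, Vcp, and the highest and lowest per kilobase in each particle. Some listed genes are not reported here.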

Additional observations from a re-analysis of the deposited data

Results flagged for a closer look

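In 4 cap genes every WT treated library lay above the WT vehicle mean while every KO treated library lay below the KO vehicle mean, which held for 5.26% of all 16639 genes tested. They were the ATPases Psmc2 and Psmc4 and the non-ATPase subunits Psmd6 and Psmd12. Psmd6 had the largest difference between the responses, -1.16 on the log2 scale, with KO treated libraries at -0.53 to -0.02 from the KO vehicle mean and WT treated libraries at 0.66 to 1.08 from the WT vehicle mean. The differences were -0.91 for Psmc2, -0.71 for Psmc4 and -0.65 for Psmd12. In edgeR's test of the interaction their adjusted p values were 0.767 for Psmd6 and Psmc2, 0.798 for Psmc4 and 0.805 for Psmd12, so the differences did not pass that test. With the length trend removed the differences were -0.39 for Psmd6, -0.27 for Psmc2, 0.027 for Psmc4 and -0.033 for Psmd12. The median of all genes was then 0.339 in place of 0.11.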

How the results depend on the processing

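No paired analysis was possible because the library numbers are not shared between groups. Depth was 8.13 M to 31.1 M gene counts, and the fewest counts of the 36 genes were those of Psma8 (2 to 592 per library). Members called changed from 0 with edgeR to 1 (DESeq2) and 28 (voom) in KO treated against WT treated libraries, to 6 (no filter, 0.768% of all genes), 8 (DESeq2) and 17 (covariate for reads outside genes, 12.6% of all genes) in WT treated against WT vehicle libraries, and to 1 (DESeq2) for the interaction. Leaving out 1 library gave 0 to 16 members called in KO treated against WT treated libraries and 0 to 15 in WT treated against WT vehicle libraries (both highest without 257), and 0 in the other 3 contrasts. The leave-one-out range of the core median was -1.36 to -0.55, -0.00018 to 0.30, 1.10 to 1.43, -0.30 to 0.51 and -1.51 to -0.70 in the contrasts KO treated against WT treated, KO vehicle against WT vehicle, WT treated against WT vehicle, KO treated against KO vehicle and interaction. That of the cap median was -0.56 to -0.27, 0.16 to 0.30, 0.32 to 0.55, -0.33 to -0.052 and -0.67 to -0.42, and that of Vcp 0.99 to 1.14, -0.40 to -0.18, -1.42 to -1.24, -0.082 to 0.14 and 1.22 to 1.46, in the same order.

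With the length trend removed the median of all genes was -0.30 in WT treated against WT vehicle and -0.335 in KO vehicle against WT vehicle libraries. It was 0.339 for the interaction and 0.03 in KO treated against WT treated libraries. The core and cap medians were then 0.14 and -0.25 in WT treated against WT vehicle libraries and -0.080 and -0.16 in KO vehicle against WT vehicle libraries. For the interaction they were -0.43 and 0.041, and the cap was -0.13 in KO treated against WT treated libraries. With 257 left out as well they were 0.14 and -0.25, -0.072 and -0.16, and 0.0086 for the cap interaction and -0.13 for the cap in KO treated against WT treated libraries. With voom the core was -1.38, 0.33, 1.41 and -1.82 in KO treated against WT treated, KO vehicle against WT vehicle, WT treated against WT vehicle and the interaction, and the cap -0.33 in KO treated against KO vehicle and -0.79 for the interaction. Upper-quartile scaling gave 1.51 (core) and 0.61 (cap) in WT treated against WT vehicle libraries, where it moved the median of all genes to 0.32, and -0.75 for the cap interaction. Leaving out WT vehicle libraries 253 and 265 left library 240 alone in that group. The core and cap were then 0.46 and 0.41 in KO vehicle against WT vehicle and 1.55 and 0.65 in WT treated against WT vehicle, and the cap interaction -0.79. With the covariate the core was 0.54 in KO vehicle against WT vehicle, 1.81 in WT treated against WT vehicle and -1.65 for the interaction, and the cap 0.65 in WT treated against WT vehicle and -0.82 for the interaction. Vcp passed the threshold in KO treated against WT treated libraries with DESeq2 (1.05) and voom (0.96), in WT treated against WT vehicle libraries with DESeq2 (-1.33) and the covariate (-1.24), and for the interaction with DESeq2 (1.41). Its sign turned in KO vehicle against WT vehicle without 253 and 265 (0.070, against library 240 alone), and in KO treated against KO vehicle with voom (-0.046) and without the length trend and 257 (-0.14). The sign of Psma3 turned in KO vehicle against WT vehicle without the length trend (-0.080, and -0.072 also without 257). The median of all genes there was -0.335 without the length trend, so Psma3 stayed above it. Psmb6 turned in KO treated against KO vehicle with voom (-0.18), without the length trend (-0.015, where the median of all genes was -0.017) and also without 257 (-0.32), and Psmb4 with voom (-0.099) and without both (-0.055). Leaving out 1 library, Psmb6 ranged from -0.32 to 0.98 and Psmb4 from -0.10 to 0.81 in that contrast, and Psmd2 from 0.57 to 1.53 in KO treated against WT treated. The log2 ratio of Psmb8 to Psmb5 ranged from -0.48 to 0.057 in KO treated against WT treated and -0.098 to 0.53 in WT treated against WT vehicle, that of Psmb9 to Psmb6 from -0.64 to -0.28 in KO treated against WT treated, -0.30 to 0.060 in KO vehicle against WT vehicle and -0.19 to 0.019 in KO treated against KO vehicle, and that of Psmb10 to Psmb7 from -0.81 to 0.067 in KO treated against WT treated and -0.48 to 0.86 in WT treated against WT vehicle. The cause of these shifts was not tested.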
